A study of Mus musculus with 53 samples.

Results

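The perineuronal net and matrix proteoglycan genes examined here were Acan, Bcan, Ncan, Tnr, Hapln1, Hapln2 and Hapln4. They were chosen by symbol, as all rows of the count table carrying these names, and 7 of the 12372 genes in the table were members. All 7 had passed the filter on mean expression that was applied to the table by the authors, and no member was lost here. Acan, Bcan and Ncan encode aggrecan, brevican and neurocan, chondroitin sulphate proteoglycans that bind hyaluronan at one end and tenascins at the other. Tnr encodes tenascin-R, which crosslinks them. Hapln1, Hapln2 and Hapln4 encode link proteins, which lock proteoglycans onto hyaluronan.

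In the brain these molecules form the diffuse matrix between cells and, in a denser form, the perineuronal net around cell bodies and dendrites of certain neurons, best known around fast-spiking inhibitory neurons and around large neurons of the brainstem and deep cerebellar nuclei. Aggrecan and the link proteins Hapln1 and Hapln4 are typical of the net, Hapln4 being linked to brevican at inhibitory contacts. Hapln2 is made by oligodendrocytes and sits in the matrix at nodes of Ranvier. Brevican and neurocan are made largely by astrocytes and neurons, and tenascin-R by oligodendrocyte lineage cells and some neurons.

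Expression was measured by RNA sequencing of bulk tissue from brainstem, cerebellum, cortex and striatum of male C57BL/6 mice at 17.5 months (74 to 77 weeks). The SCA3 mice were hemizygous MJD84.2 mice, a model of spinocerebellar ataxia type 3 that carries human ATXN3 with an expanded CAG repeat, driven by its own human promoter in all tissues, in addition to the mouse Atxn3 gene. Wild-type mice carried the mouse gene alone. No mouse was treated, and no ataxia was detected in the SCA3 mice, so that the comparison concerns a stage without overt motor signs. There were 14 mice (8 wild-type and 6 SCA3) and 53 libraries, with 1 library per mouse and region: 8 wild-type and 6 SCA3 libraries in brainstem, 7 and 6 in cerebellum, 7 and 6 in cortex, and 8 and 5 in striatum. In such tissue, fewer cells of a type and less RNA per cell cannot be told apart.

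Libraries held 31.7 to 76.7 M (mega) counts, with a median of 57.7, and levels are given as CPM, counts per M counts after TMM scaling of library size. RNA integrity numbers (RIN) ran from 5.7 to 9, and in brainstem they were 6.3 to 7.6 in wild-type against 7.4 to 8 in SCA3 mice. In wild-type mice, 9 of 9 striatum markers were higher in striatum than in each other region, 3 of 3 cerebellum markers were higher in cerebellum than in each other region, and 3 of 3 cortex markers were higher in cortex than in brainstem and striatum but 2 of 3 than in cerebellum. The brainstem label could be checked with Glra1 alone, which was higher in brainstem than in each other region. Mouse Atxn3 was called higher in SCA3 striatum only (log2 fold change 0.33, false discovery rate, FDR, of 0.00012), and its counts do not separate the human transgene. The summed level of 9 thalamus markers reached 1340 and 2270 CPM in the striatal libraries of wild-type mice 7267058 and 7267059, against 110 to 374 CPM in the other striatal libraries. These are called the marker-high libraries here, and striatal genotype results of the members are given with and without them. The submitters' library numbers ran in blocks by genotype, so anything that followed that order cannot be told apart from genotype.

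Most of the 7 genes lie beside a relative in the mouse genome (GRCm38, GENCODE M21). Bcan (chr3:87987531-88000230) and Hapln2 (chr3:88021750-88027583) lie 21.5 kb apart on the minus strand. Ncan (chr8:70093085-70120873, minus strand) and Hapln4 (chr8:70083457-70090862, plus strand) lie 2.22 kb apart with no other protein-coding gene between them. Hapln1 (chr13:89539796-89611652, plus strand) lies 43.7 kb from Vcan, which encodes versican and is the remaining gene of the aggrecan family. Acan (chr7:79053483-79115099, plus strand) ends 2 bases short of Hapln3 on the opposite strand. Tnr (chr1:159523769-159931729, plus strand) overlaps the antisense gene Gm38039 over 3337 bases. Strand was not used in counting, so reads from such antisense overlaps could not be separated.

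RefSeq promoters (GRCm38.p6, 250 bases before to 50 bases after the start) were at hand for 6 of the 7 genes. Those of Acan, Hapln1 and Hapln2 are shown because the RNA levels of Acan and Hapln1 moved together between libraries of cerebellum, and because Hapln2 followed myelin genes, as described further on. The Acan promoter is chr7:79052976-79053275 on the plus strand, the Hapln1 promoter chr13:89540386-89540685 on the plus strand and the Hapln2 promoter chr3:88027462-88027761 on the minus strand. Capitals mark matches on either strand to the TATA box TATAAA, to the box named after its letters CCAAT, to the GC box spelled GGGCGG, to the E-box with the letters CACGTG, to the Sox core given as AACAAT or to the cAMP response element read as TGACGTCA.
Acan: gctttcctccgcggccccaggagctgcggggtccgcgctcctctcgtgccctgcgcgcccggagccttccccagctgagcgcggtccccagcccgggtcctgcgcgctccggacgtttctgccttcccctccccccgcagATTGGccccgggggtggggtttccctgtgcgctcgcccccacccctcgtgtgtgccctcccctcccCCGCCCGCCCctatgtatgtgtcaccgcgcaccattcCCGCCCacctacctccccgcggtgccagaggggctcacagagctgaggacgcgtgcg
Hapln1: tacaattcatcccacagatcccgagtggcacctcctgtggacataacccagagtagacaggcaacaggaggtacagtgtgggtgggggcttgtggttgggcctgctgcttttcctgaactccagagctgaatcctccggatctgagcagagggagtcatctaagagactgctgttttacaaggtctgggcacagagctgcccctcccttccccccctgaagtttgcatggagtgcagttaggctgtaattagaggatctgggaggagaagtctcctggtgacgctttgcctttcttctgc
Hapln2: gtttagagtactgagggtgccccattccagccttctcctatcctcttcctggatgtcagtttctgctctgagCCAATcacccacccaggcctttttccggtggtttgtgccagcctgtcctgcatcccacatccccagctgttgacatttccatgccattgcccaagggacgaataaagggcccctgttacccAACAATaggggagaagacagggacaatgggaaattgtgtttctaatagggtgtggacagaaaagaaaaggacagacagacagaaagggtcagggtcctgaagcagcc

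The Acan promoter was 74% G or C with 31 CpG sites, against a median of 52.7% and 7 over 27025 promoters. It held 3 GC boxes, of which the leftmost pair overlap, and 1 CCAAT box. The Hapln1 promoter was 54.3% G or C with 3 CpG sites and held none of the 6 motifs. The Hapln2 promoter was 52% G or C with 2 CpG sites and held 1 CCAAT box and 1 Sox core. Of all promoters of this length, 35.9% held a GC box, 37.9% a CCAAT box, 10.9% a Sox core, 14.2% a TATA box, 7.24% an E-box and 1.88% the cAMP response element. These are matches of letters in the window and nothing more. Acan and Hapln1 thus shared none of the motifs searched.

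Levels in wild-type mice are given first, with mean ± SD, and differences between regions as called at an FDR below 0.05 over all genes. Many genes differed between regions: 72.6% of all genes were called between brainstem and cerebellum, 65.4% between brainstem and cortex, 64.2% between brainstem and striatum, 69.7% between cerebellum and cortex, 69.5% between cerebellum and striatum, and 34.4% between cortex and striatum. Of the 7 matrix genes, 6, 6, 7, 4, 6 and 2 were called in these comparisons, in the same order. In brainstem against cerebellum, 6 of 6 called members were higher in brainstem.

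**Figure D1:**
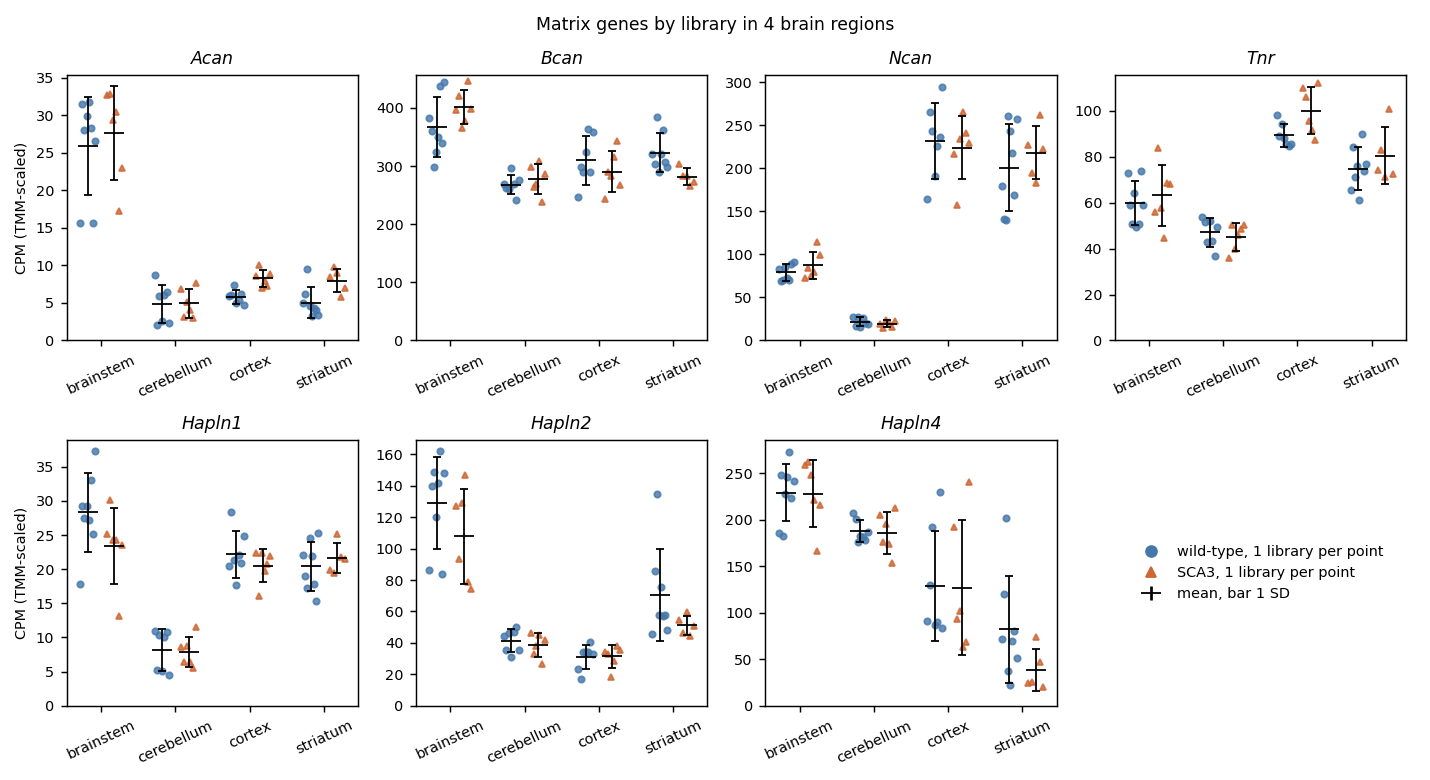
CPM of the 7 genes in each of the 53 libraries, by region and genotype (circles wild-type, triangles SCA3; black bars mean and 1 SD). Acan stood between 15.6 and 32.8 CPM in brainstem and at or below 10 CPM elsewhere, and Ncan was at 140 to 295 CPM in cortex and striatum and at 14.2 to 27 CPM in cerebellum.

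Among the proteoglycans, Acan was a brainstem transcript. The level in brainstem of wild-type mice was 25.9 ± 6.56 CPM (n = 8, range 15.6 to 31.8, median 28.1). The mean was 5.81 ± 0.903 CPM in cortex (n = 7, range 4.69 to 7.42, median 5.92), 5.03 ± 2.04 in striatum (n = 8, range 3.23 to 9.53, median 4.43) and 4.86 ± 2.56 in cerebellum (n = 7, range 2.02 to 8.67, median 5.94). No library of another region reached the lowest wild-type brainstem library. Brainstem exceeded cerebellum 5.33-fold (log2 fold change 2.41, SE 0.24), striatum 5.16-fold (2.37, SE 0.23) and cortex 4.46-fold (2.16, SE 0.24). The FDR was 1.4e-20, 1.9e-21 and 9.3e-17. Cerebellum, cortex and striatum were not called different from each other, with FDR values between 0.35 and 0.87.

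Ncan was highest in the forebrain. Wild-type cortex held 232 ± 44 CPM (n = 7, range 164 to 295, median 236) and striatum 201 ± 50.4 (n = 8, range 140 to 261, median 199), which were not called different (log2 fold change 0.2, SE 0.14, FDR 0.28). Brainstem held 79 ± 9.34 CPM (n = 8, range 69.3 to 91.5, median 77.9) and cerebellum 21.5 ± 5.23 (n = 7, range 15.1 to 27, median 20.2). These last groups did not overlap each other or the forebrain libraries. Ncan in cerebellum was at 0.0931 of its cortical level (log2 fold change -3.43, SE 0.15, FDR 6.9e-95), the widest regional difference among the 7 genes, and brainstem was at 0.341 of cortex (-1.55, SE 0.14, FDR 6.1e-25).

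Bcan was nearly even across the brain. Wild-type means were 367 ± 51.9 CPM in brainstem (n = 8, range 299 to 445, median 355), 323 ± 33.2 in striatum (n = 8, range 290 to 385, median 314), 310 ± 41.9 in cortex (n = 7, range 246 to 364, median 299) and 268 ± 16.5 in cerebellum (n = 7, range 241 to 296, median 269). The ranges of neighbouring regions overlapped. Brainstem was nevertheless called higher than cerebellum (1.37-fold, log2 fold change 0.45, SE 0.08, FDR 6.8e-08), cortex (1.18-fold) and striatum (1.14-fold, FDR 0.031), and cerebellum lower than cortex and striatum. The step to striatum was lost in 4 of 22 alternatives (FDR up to 0.18), each without 1 mouse (7267055, 7267058, 9083372 or 9083375), and that from cerebellum to cortex in 2 of 22, without 9083372 or 9083375 (FDR up to 0.07). Cortex and striatum were not called different (FDR 0.6).

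Tnr, the crosslinker, was highest in cortex at 89.3 ± 5.02 CPM (n = 7, range 84.9 to 98, median 88.3), followed by striatum at 74.8 ± 9.28 (n = 8, range 61.2 to 89.7, median 74.9), brainstem at 59.9 ± 9.76 (n = 8, range 49.3 to 73.9, median 59) and cerebellum at 47.1 ± 6.28 (n = 7, range 36.6 to 53.8, median 49.5). All 6 regional pairs were called. The step from striatum to cortex was 1.19-fold (log2 fold change 0.26, SE 0.1) with an FDR of 0.044, and it was lost in 10 of 22 alternatives (FDR 0.027 to 0.15 over all 22). The order of Tnr resembled that of Ncan, with r = 0.845 between their log2 CPM over the 53 libraries. Within regions the r was 0.57 in brainstem (n = 14), -0.32 in cerebellum, -0.51 in cortex and 0.1 in striatum (n = 13 each), so the likeness over all libraries was not shared by every region.

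The link proteins differed from each other. In brainstem of wild-type mice Hapln1 was at 28.3 ± 5.73 CPM (n = 8, range 17.8 to 37.3, median 28.4). It was at 22.2 ± 3.42 in cortex (n = 7, range 17.7 to 28.3, median 21.4), 20.4 ± 3.57 in striatum (n = 8, range 15.4 to 25.3, median 20.4) and 8.15 ± 3.03 in cerebellum (n = 7, range 4.54 to 11, median 10.1). Only cerebellum stood clear of the other regions, the brainstem level being 3.47-fold higher (log2 fold change 1.8, SE 0.17, FDR 9.4e-23). Brainstem exceeded striatum (0.47, SE 0.16, FDR 0.0076), while brainstem and cortex (FDR 0.061) and cortex and striatum (FDR 0.6) did not pass the test. Brainstem against cortex passed in 5 of 22 alternatives, among them limma-voom with the mouse as a block (FDR 0.024).

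Hapln2 was highest in brainstem at 129 ± 29.3 CPM (n = 8, range 83.7 to 162, median 141), then striatum at 70.4 ± 29.3 (n = 8, range 45.9 to 135, median 57.6), cerebellum at 41.4 ± 7.15 (n = 7, range 31.2 to 49.9, median 44.3) and cortex at 31.1 ± 7.82 (n = 7, range 17.2 to 40.3, median 34.3). Brainstem was 4.14-fold above cortex (log2 fold change 2.05, SE 0.19, FDR 3.2e-23). Cortex was at 0.442 of striatum (-1.18, SE 0.19, FDR 5e-08). The bottom pair, cerebellum and cortex, fell just outside the threshold (0.41, SE 0.2, FDR 0.051). Mature oligodendrocyte markers had the same top and the same second region, with summed medians of 19300 CPM in brainstem, 8850 in striatum, 4960 in cerebellum and 4480 in cortex.

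Hapln4 was at 229 ± 30.9 CPM in brainstem (n = 8, range 183 to 273, median 235), 188 ± 11.8 in cerebellum (n = 7, range 176 to 207, median 183), 129 ± 59.1 in cortex (n = 7, range 83.6 to 230, median 91.5) and 82 ± 57 in striatum (n = 8, range 21.9 to 202, median 70.7). Brainstem and cerebellum were not called different (log2 fold change 0.28, SE 0.29, FDR 0.38), nor were cerebellum and cortex (FDR 0.1) or cortex and striatum (0.66, FDR 0.065). Regions share mice, and with the mouse as a block in limma-voom both of these pairs passed, cerebellum against cortex at 0.66 (FDR 0.043) and cortex against striatum at 0.84 (FDR 0.014). The latter passed in 5 of 22 alternatives, and without the marker-high libraries it was 1.22 (FDR 0.00014). Brainstem exceeded striatum 2.79-fold (log2 fold change 1.48, SE 0.28, FDR 1e-06). The spread itself differed: the coefficient of variation was 13.5% in brainstem and 6.31% in cerebellum, but 45.7% in cortex and 69.5% in striatum. The test of brainstem against cerebellum used a dispersion shared by all groups, so it did not rest on the spread of those regions alone. In wild-type cortex the values of 192 and 230 CPM stood above 5 libraries at 83.6 to 130 CPM, and in SCA3 cortex 192 and 241 CPM stood above 4 libraries at 63.6 to 102 CPM.

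Per kilobase of exon, levels can be set beside each other. In wild-type brainstem the mean was 90.4 CPM per kb for Bcan, 58.3 for Hapln4, 54.3 for Hapln2, 11 for Ncan, 4.8 for Hapln1, 4.65 for Tnr and 3.47 for Acan. In wild-type cortex it was 76.4 for Bcan, 33 for Hapln4, 32.2 for Ncan, 13.1 for Hapln2, 6.92 for Tnr, 3.77 for Hapln1 and 0.778 for Acan. Bcan had the highest and Acan the lowest level per kb in all 4 regions.

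SCA3 mice were then compared with wild-type mice in each region. Of all genes, 1.92% were called in brainstem, 0.0647% in cerebellum, 0.154% in cortex and 7.54% in striatum. Of the 7 matrix genes, 0, 0, 0 and 1 were called, the last being Hapln4, which was lower in SCA3 striatum. The combined test of genotype over the regions called 4.73% of all genes and 0 members, and the test of whether the genotype effect depended on region called 0.218% of all genes and 0 members. At an unadjusted p under 0.05 there were 0 members in brainstem, 0 in cerebellum, 1 in cortex and 4 in striatum, and 2 in each joint test. Of all 12372 genes, 1640, 205, 503 and 2874 were at this level in these regions, in the same order, and 2051 and 1125 in the combined and region dependence tests. All 28 pairs of groups (7 genes in 4 regions) overlapped between genotypes. Overlap was not counted over all genes, so this count does not set the members apart. The median log2 fold change of the 7 genes was 0.08 in brainstem, -0.05 in cerebellum, -0.03 in cortex and 0.08 in striatum, and that of all genes was 0 in each region.

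**Figure D2:**
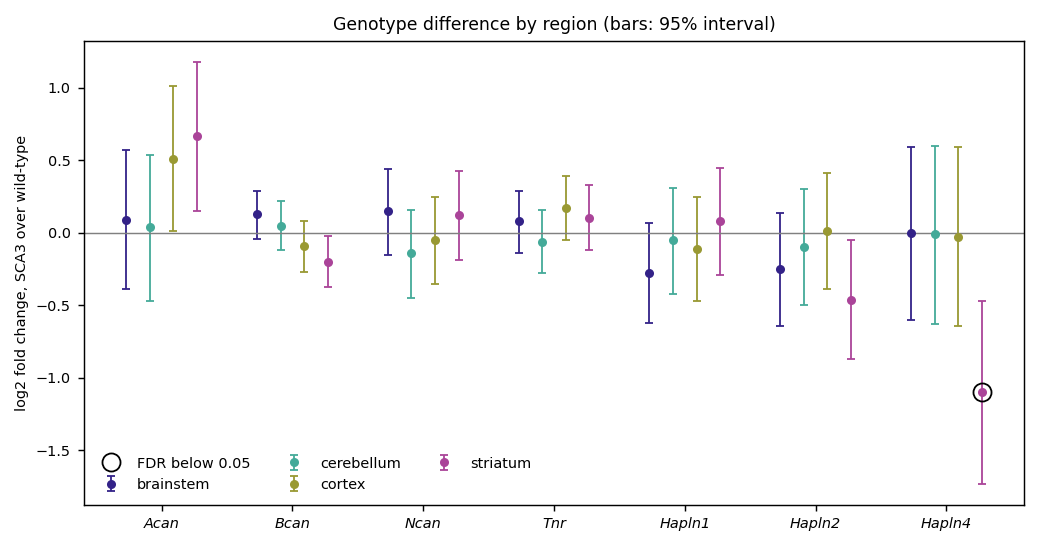
Log2 fold change of SCA3 over wild-type for each gene (horizontal axis) and region (colour), with 95% intervals from the edgeR fit. The circled point, Hapln4 in striatum at -1.1, is the only value past an FDR of 0.05, and the intervals of Acan in cortex and striatum lie above 0.

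Hapln4, a link protein of perineuronal nets and inhibitory contacts, was lower in SCA3 striatum. The 8 wild-type libraries ran from 21.9 to 202 CPM with a median of 70.7 and a mean of 82 ± 57. The 5 SCA3 libraries were at 20.3, 24.5, 25.7, 46.7 and 73.6 CPM, a mean of 38.2 ± 22.3. The groups overlapped, with 4 of 5 SCA3 libraries below the wild-type median and 3 of 8 wild-type libraries above the highest SCA3 library. The log2 fold change was -1.1 (SE 0.32, 95% interval -1.73 to -0.47, FDR 0.021), a level of 0.465 of wild-type. In the other regions the log2 fold change of Hapln4 was 0 in brainstem, -0.01 in cerebellum and -0.03 in cortex, with SE of 0.3 to 0.31, yet the test of region dependence did not pass (FDR 0.51). Over the alternatives these values ran from -0.3 to 0.33 in brainstem, -0.1 to 0.04 in cerebellum and -0.31 to 0.36 in cortex, and none passed.

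Thalamus markers moved with this result. In striatum, 6 of 9 measured thalamus markers were called lower in SCA3 mice, led by Prkcd, a kinase gene typical of thalamic relay neurons (log2 fold change -3.47, FDR 4.2e-06). Their summed level was 111 to 2270 CPM in wild-type libraries (median 268) and 110 to 311 CPM in SCA3 libraries (median 115), with no marker at 0. Within genotypes, Hapln4 followed that sum over the 13 striatal libraries (r = 0.88, rho = 0.77, and r = 0.83 without the libraries with the most extreme sums), these points sharing a dissection, a library and a depth. Its r with other marker sums was -0.91 for striatum markers (rho = -0.92), 0.83 for the brainstem marker Glra1, 0.79 for fast-spiking neuron markers and 0.77 for oligodendrocyte precursor markers. Of the 8 fast-spiking neuron markers 0 were called between genotypes in striatum (edgeR likelihood ratio test, 2 at an unadjusted p under 0.05). They had a median log2 fold change of -0.39, with 6 of 8 below 0 and summed medians of 2290 CPM in wild-type and 1820 CPM in SCA3 libraries. Glra1 was at -1.89 (SE 0.7, FDR 0.099). None of the 9 striatum markers was called between genotypes in striatum (edgeR likelihood ratio test, 1 at an unadjusted p under 0.05). Their log2 fold changes were above 0 in 9 of 9, with a median of 0.47, and their summed level was 2180 to 9420 CPM in wild-type (median 4640) and 5790 to 8600 CPM in SCA3 libraries (median 8120). The part of these cell and tissue markers in the Hapln4 value was not tested apart from the thalamus and oligodendrocyte scores. The wild-type libraries with the highest sums, 1340 and 2270 CPM, were also the highest in Hapln4, at 120 and 202 CPM. With the thalamus marker score as a covariate in the striatal libraries alone the log2 fold change of Hapln4 was -0.5 (FDR 0.51), and without these 2 libraries it was -0.54 (FDR 0.39). Leaving out mouse 7267059 alone gave -0.76 (FDR 0.15). With the mature oligodendrocyte score it was -0.59 (FDR 0.58). The second largest series of mouse numbers gave -2.39 when analysed alone (FDR 1.9e-05). Its striatal libraries came only from wild-type mice 7267055, 7267058 and 7267059 and SCA3 mice 7267054 and 7267056. Both marker-high libraries are thus among its few wild-type libraries. The call was lost in 15 of 31 alternatives, and the value stayed negative in all of them (-2.39 to -0.5).

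**Figure D3:**
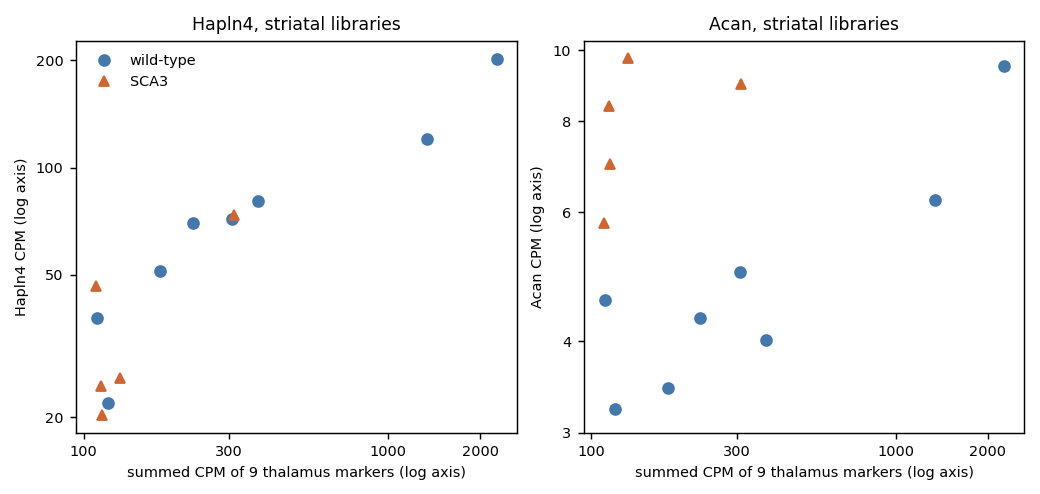
Hapln4 (left) and Acan (right) CPM in the 13 striatal libraries against the summed CPM of 9 thalamus markers, both axes logarithmic (circles wild-type, triangles SCA3). Hapln4 of wild-type libraries reaches 202 CPM at a sum of 2270, and 1 SCA3 library at a sum of 311 holds 73.6 CPM while the others hold 20.3 to 46.7 CPM at sums of 110 to 132. On the right the SCA3 libraries hold 5.8 to 9.75 CPM of Acan at sums of 110 to 311, where wild-type libraries hold 3.23 to 4.97 CPM.

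Acan, the core proteoglycan of the net, had its largest genotype differences in striatum and cortex, with higher values in SCA3 mice. The 8 wild-type striatal libraries ran from 3.23 to 9.53 CPM with a median of 4.43. The 5 SCA3 libraries were at 5.8, 6.99, 8.4, 8.98 and 9.75 CPM, all above the wild-type median. The groups overlapped because wild-type mice 7267058 and 7267059, the ones with the high thalamus marker sums, were at 6.23 and 9.53 CPM, and 6 of 8 wild-type libraries lay below the lowest SCA3 library. The log2 fold change was 0.67 (SE 0.26, 95% interval 0.15 to 1.18) and did not pass over all genes (FDR 0.083). Within genotypes Acan also followed the thalamus marker sum (r = 0.83, rho = 0.73, n = 13, and r = 0.55 without the 2 extreme libraries).

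Leaving out the marker-high libraries raised the log2 fold change of both genes, which brought Hapln4 nearer to 0 and took Acan further from it. Without those 2 libraries the value of Acan was 0.97 (FDR 0.017), without mouse 7267059 alone it was 0.86 (FDR 0.017), and with the thalamus marker score in the striatal libraries alone it was 0.97 (FDR 1.1e-05). With the mature oligodendrocyte marker score it was 1.01 (FDR 0.00044). When series of mouse numbers were analysed alone, it was 0.77 in the largest (FDR 0.099) and 0.39 in the second largest (FDR 0.45). The value was positive in all 31 alternatives (0.39 to 1.01) and passed in 4, with either marker score, without mouse 7267059 and without both libraries. It did not pass without mouse 7267058 alone (0.72, FDR 0.1), nor in the largest series, which holds neither of these mice.

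In cortex Acan was 4.69 to 7.42 CPM in 7 wild-type libraries (median 5.92) and 7.01 to 10 CPM in 6 SCA3 libraries (median 8.26). Here 4 of 6 SCA3 libraries exceeded every wild-type library, and 6 of 7 wild-type libraries lay below every SCA3 library. The log2 fold change was 0.51 (SE 0.26, 95% interval 0.01 to 1.01), with an FDR of 1 in the fit of all libraries. In the cortical libraries alone, whose Acan values spread less than those of cerebellum and striatum, the log2 fold change was the same and the FDR was 0.049. The part of this spread in the lower FDR was not tested. The call in cortical libraries alone was not kept with RIN added (0.42, FDR 0.59) or with the quasi-likelihood F test (FDR 0.26). In cortex 0 of 9 thalamus markers, 0 of 12 oligodendrocyte markers, 0 of 9 striatum markers and 0 of 8 markers of fast-spiking inhibitory neurons were called. Of 12 astrocyte markers 0 were called, but 10 were below 0 and 2 had an unadjusted p under 0.05 (edgeR likelihood ratio test). The other 4 lists had 0 at that level. Only 0.154% of all genes were called in cortex, so these counts say little about the markers. Their part in the Acan value was not tested. The summed thalamus markers were 120 to 287 CPM in wild-type and 117 to 298 CPM in SCA3 cortex, and RIN was 7.7 to 8 and 7.8 to 8.2.

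In brainstem, where its level was highest, Acan was 15.6 to 31.8 CPM in wild-type (median 28.1) and 17.2 to 32.8 CPM in SCA3 mice (median 29.8), a log2 fold change of 0.09 (SE 0.25). In cerebellum it was 2.02 to 8.67 and 2.98 to 7.63 CPM, a log2 fold change of 0.04 (SE 0.26). Neither was called different between genotypes. With the mature oligodendrocyte score, in brainstem libraries alone, the brainstem value was 0.48 (FDR 0.03), the only call in 31 alternatives, which ran from -0.13 to 0.48. With the thalamus score it was 0.19 (FDR 0.51). The oligodendrocyte marker sum had a median of 19300 CPM in wild-type and 12300 CPM in SCA3 brainstem and an r of 0.84 with Acan there (rho = 0.51, n = 14). Brainstem Acan also had an r of 0.9 with Glra1 (rho = 0.7) and of -0.81 with the thalamus marker sum (rho = -0.49). The combined test over regions gave Acan an FDR of 0.22, which became 0.032 without mouse 7267059 and 0.031 without its and mouse 7267058's striatal libraries. The region dependence of Acan did not pass (FDR 0.82), so its effects in striatum and cortex were not shown to differ from those elsewhere.

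Bcan and Hapln2 were the other members with an unadjusted p under 0.05 in striatum. Bcan was 290 to 385 CPM in wild-type striatum (median 314) and 266, 273, 283, 283 and 303 CPM in SCA3 striatum, 4 of 5 below every wild-type library. The log2 fold change was small, -0.2 (SE 0.09, FDR 0.15), and was -0.17 without the marker-high libraries (FDR 0.39). Astrocyte markers, of which 5 of 12 were called lower in SCA3 striatum, had summed levels of 4910 to 7030 CPM in wild-type and 5060 to 5630 CPM in SCA3 libraries, and their part in the Bcan value was not tested. In brainstem, where 5 of 12 astrocyte markers were also called lower, Bcan was at 0.13 (SE 0.08, FDR 0.53), and at -0.04 (FDR 0.98) in brainstem libraries alone with RIN as a covariate. The region dependence of Bcan had an FDR of 0.5.

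Hapln2 was 45.9 to 135 CPM in wild-type striatum (median 57.6) and 44.1, 46.2, 50.8, 54.4 and 59.8 CPM in SCA3 striatum. The groups overlapped over most of the SCA3 range. The log2 fold change was -0.46 (SE 0.21, FDR 0.16), and the marker-high libraries had 85.7 and 135 CPM. Without them the log2 fold change of Hapln2 was -0.16 (FDR 0.77), with the thalamus score -0.17 (FDR 0.7) and with the mature oligodendrocyte score 0.01 (FDR 0.98). Mature oligodendrocyte markers moved with it: 6 of 12 were called lower in SCA3 striatum and 3 of 12 in SCA3 brainstem, with summed levels of 6710 to 19500 CPM in wild-type and 6190 to 9430 CPM in SCA3 striatum. In brainstem Hapln2 was 83.7 to 162 CPM in wild-type and 74.2 to 147 CPM in SCA3 mice, a log2 fold change of -0.25 (SE 0.2, FDR 0.63), the marker sums there being 10600 to 21900 and 9600 to 16200 CPM. In brainstem libraries alone it was 0.15 with the mature oligodendrocyte score (FDR 0.3), which turned its direction, and -0.08 with RIN (FDR 0.98).

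The remaining members were not called between genotypes in any region. For Ncan the log2 fold change was 0.15 in brainstem, -0.14 in cerebellum, -0.05 in cortex and 0.12 in striatum, with SE of 0.15 to 0.16. Its brainstem value ran from -0.01 to 0.26 over 31 alternatives, of which 0 passed. Tnr had 0.08, -0.06, 0.17 and 0.1 in the same order of regions, with SE of 0.11 to 0.12. In cortex 3 of 6 SCA3 libraries exceeded every wild-type library in Tnr (84.9 to 98 CPM against 87.3 to 112), without passing the test. Hapln1 had -0.28 (SE 0.18) in brainstem, where SCA3 libraries were at 13.2 to 30.1 CPM against 17.8 to 37.3, and -0.05, -0.11 and 0.08 elsewhere. Its brainstem value ran from -0.6 in the largest number series alone to 0.15 in the second largest, and 0 of 31 alternatives passed. With the mature oligodendrocyte score, in brainstem libraries alone, it was -0.09. Without the marker-high libraries the striatal values were -0.02 for Ncan, 0.12 for Tnr and 0.03 for Hapln1, with FDR of 0.7 to 0.97. In the fit of all libraries the 95% intervals of Tnr lay within -0.28 and 0.39 in all 4 regions, those of Ncan within -0.45 and 0.44 and those of Hapln1 within -0.62 and 0.45.

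Between libraries of the same region and genotype, the 7 genes did not vary as a unit, but 4 of them had high r values with each other in cerebellum. Acan and Hapln1 were closest there (r = 0.96, rho = 0.93, n = 13, and r = 0.96 without the 2 most extreme libraries). The other pairs of Acan, Ncan, Hapln1 and Hapln2 in cerebellum had r of 0.73 to 0.8 and rho of 0.56 to 0.73. Without the 2 most extreme libraries their r was 0.64 to 0.8. Acan had an r of 0.02 with Bcan and -0.44 with Tnr. In brainstem the r of Acan and Hapln1 was 0.77 but rho was 0.42 (n = 14), and in cortex and striatum r was -0.2 and -0.36 (n = 13 each). In cerebellum Acan also followed Glra1, a glycine receptor gene of brainstem and spinal cord (r = 0.81, rho = 0.84), the mature oligodendrocyte marker sum (r = 0.89, rho = 0.86), the oligodendrocyte precursor marker sum (r = 0.92) and the thalamus marker sum (r = 0.88). Its r was -0.87 with the fast-spiking neuron marker sum, -0.84 with the cortex marker sum and -0.68 with the cerebellum marker sum. Cerebellar Acan ran from 2.02 to 8.67 CPM and Hapln1 from 4.54 to 11.5 CPM over libraries in which Glra1 ran from 1.39 to 18.7 CPM. Points of such a comparison share a dissection, a library and a depth, and the r values describe these libraries.

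**Figure D4:**
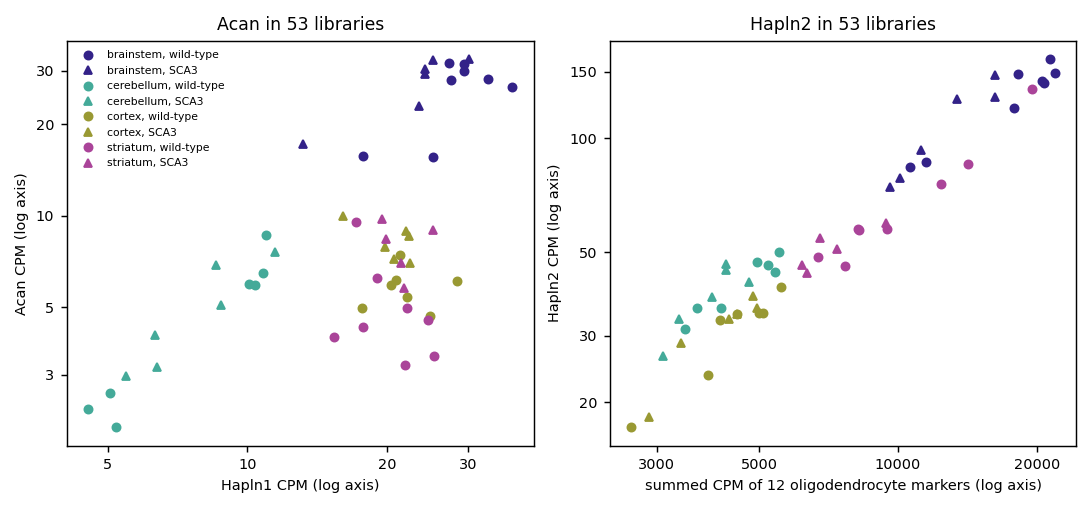
Acan against Hapln1 CPM (left) and Hapln2 CPM against the summed CPM of 12 mature oligodendrocyte markers (right) in the 53 libraries, all axes logarithmic, coloured by region (circles wild-type, triangles SCA3). The cerebellar libraries lie along a line on the left from 2.02 to 8.67 CPM of Acan, and on the right Hapln2 climbs with the markers across all 4 regions.

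Hapln2 followed the mature oligodendrocyte markers within every region, with r = 0.96 in brainstem, 0.91 in cerebellum, 0.95 in cortex and 0.96 in striatum. Over the 53 libraries the genes with the highest r with Hapln2 were Mbp (0.982), which encodes myelin basic protein, Itgb4 (0.979) and Tmem125 (0.978). Those of Ncan were Chst1 (0.989), a carbohydrate sulphotransferase gene, Sgsm2 (0.987) and Jakmip1 (0.985). Those of Acan were Asah2 (0.93), Ppip5k2 (0.929) and Nefl (0.914), the last encoding the light neurofilament chain. Hapln1 was closest to Shroom2 (0.942), Zbed5 (0.929) and Uchl1 (0.929), and Hapln4 to Aars (0.959), Efr3a (0.949) and Klhdc2 (0.946). Bcan reached at most 0.855, with Slc25a10, followed by Ntsr2 (0.84), and Tnr at most 0.899, with Sh3rf1, followed by Pacs1 (0.898) and St6gal2 (0.893). These r values over the 53 libraries include differences between regions, and r with these genes within regions was not computed.

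The neighbours differed in how alike they were. Ncan and Hapln4, 2.22 kb apart, had r = -0.558 over the 53 libraries, Ncan being high in the forebrain and Hapln4 in the hindbrain. Bcan and Hapln2, 21.5 kb apart, had r = 0.66. Hapln1 had log2 fold changes of -0.28 to 0.08 between genotypes, while the adjoining Vcan had 0.27 in brainstem, 0.1 in cerebellum, 0.37 in cortex and 0.41 in striatum.

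Other genes of the brain matrix were examined from 6 lists, of which 61 of 76 genes were in the table. In brainstem 2 of 61 were called, in striatum 7 of 61, and in cerebellum and cortex 0 of 61 each, with 3 and 4 genes there at an unadjusted p under 0.05. The combined test called 6 of 61 and region dependence 0 of 61. The shares of all genes given above, 1.92% and 7.54% in brainstem and striatum, serve as background. The median log2 fold change over the 61 genes was 0.02 in brainstem, -0.01 in cerebellum, 0 in cortex and -0.11 in striatum.

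**Figure D5:**
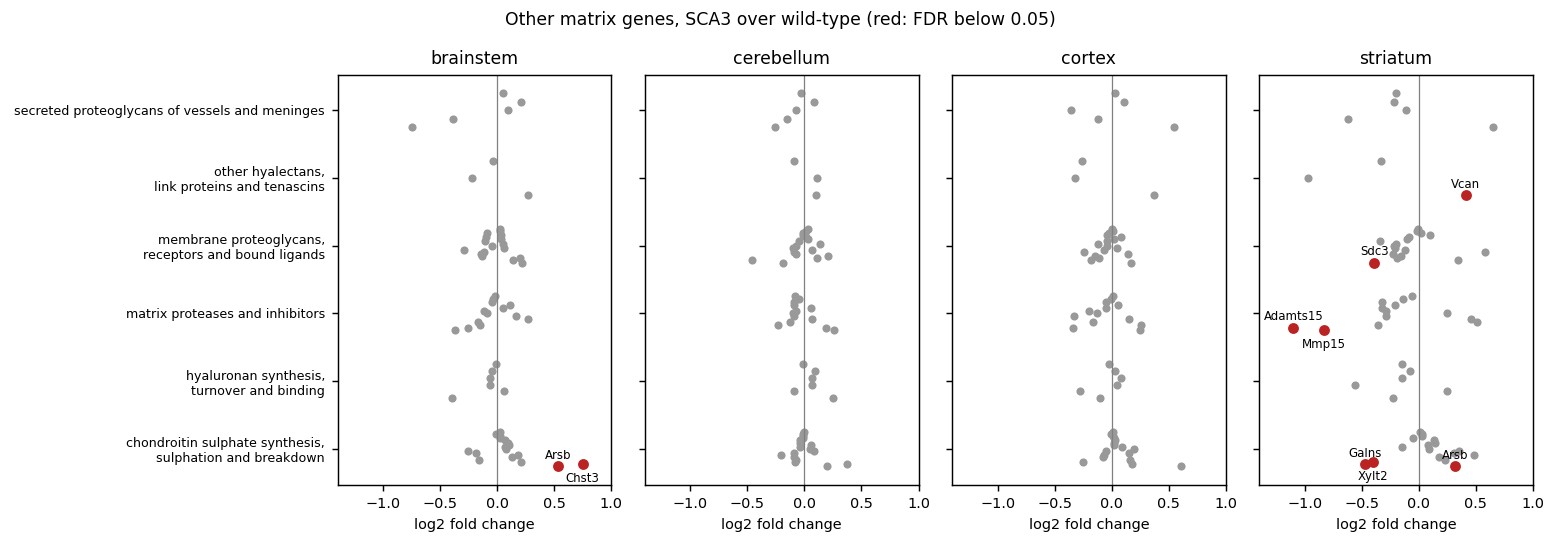
Log2 fold change of SCA3 over wild-type (horizontal axis) for the 61 other matrix genes, grouped by list, in each region. Red points passed an FDR of 0.05 and are named: Arsb and Chst3 at 0.53 and 0.75 in brainstem, and 7 genes between -1.1 and 0.41 in striatum.

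The chondroitin sulphate genes held both calls in brainstem. Arsb, which encodes the lysosomal sulphatase that removes sulphate from N-acetylgalactosamine, rose in SCA3 brainstem (log2 fold change 0.53, SE 0.07, FDR 1.2e-11) and striatum (0.32, SE 0.07, FDR 0.0013). In cerebellum and cortex its values were 0.2 and 0.18, without passing. Chst3, the 6-O-sulphotransferase of chondroitin, rose in brainstem (0.75, SE 0.15, FDR 0.00016) and was at 0.61 in cortex (SE 0.16, FDR 0.069), where it passed in 7 of 29 alternatives. It was at 0.37 in cerebellum and 0.13 in striatum, without passing. Galns, another lysosomal sulphatase, fell in striatum (-0.47, SE 0.13, FDR 0.012), as did Xylt2, which starts the sugar chain (-0.4, SE 0.13, FDR 0.041). Of the 17 chondroitin sulphate genes measured, 2 rose and 0 fell in brainstem, and 1 rose and 2 fell in striatum.

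Vcan, the versican gene, rose in striatum (0.41, SE 0.12, FDR 0.014) and passed the combined test (FDR 0.00081). Vcan (chr13:89655312-89742509) and Arsb (chr13:93771630-93943016) lie 4.03 Mb apart on chromosome 13. Among proteases and inhibitors, 2 of 13 fell in striatum, Mmp15, a membrane-bound metalloprotease gene (-0.83, SE 0.17, FDR 0.00066), and Adamts15, an aggrecan-cleaving protease gene (-1.1, SE 0.35, FDR 0.039). Sdc3, the syndecan of neurons, fell in striatum (-0.39, SE 0.1, FDR 0.0039), 1 of 17 membrane proteoglycans, receptors and ligands. No gene of the hyaluronan list (6 measured) or of the vessel and meningeal list (5 measured) was called in any region.

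The striatal calls of these genes differed in how often they were kept. Of 31 alternatives, Arsb passed in 29, Mmp15 in 28, Sdc3 in 24, Galns and Vcan in 20 each, Adamts15 in 12 and Xylt2 in 10, with 1 more at an FDR that rounds to 0.05. Without the marker-high libraries 4 of 7 passed, namely Arsb (0.32, FDR 0.0073), Mmp15 (-0.65, FDR 0.018), Sdc3 (-0.35, FDR 0.035) and Galns (-0.46, FDR 0.049). Vcan (0.41, FDR 0.056), Xylt2 (-0.12, FDR 0.57) and Adamts15 (-0.16, FDR 0.84) did not. With the thalamus marker score 2 of 7 passed, Arsb (0.32, FDR 0.00047) and Mmp15 (-0.6, FDR 0.033). Vcan (0.38, FDR 0.097), Sdc3 (-0.33, FDR 0.16), Galns (-0.45, FDR 0.25), Xylt2 (-0.11, FDR 0.81) and Adamts15 (-0.12, FDR 0.81) did not.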

How the data were processed

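The authors deposited raw counts, whole numbers of reads per gene with 1 column per library. Per their methods and the submitters' processing notes, poly-A selected libraries without strand information were sequenced as paired reads, aligned to GRCm38 with STAR 2.3.0e keeping unique alignments, and counted over RefSeq genes with HTSeq 0.6.1 regardless of strand. Genes averaging above 4 CPM were kept. Unique alignment loses reads shared by near-identical genes.

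Counts were analysed with edgeR 4.0.16 (limma 3.58.1, R 4.3.3). All 53 libraries entered 1 negative binomial fit after TMM normalisation, with 8 groups of region and genotype, as in the study's methods, and contrasts were tested with likelihood ratio tests. P-values were adjusted by Benjamini-Hochberg over 12372 genes and called at an FDR below 0.05. SE are those of the log2 fold change, and intervals are 95% Wald intervals. CPM used TMM-scaled totals, with a prior count of 2 for logs. The r values within regions used log2 CPM less the genotype mean.

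Groups came from the labels. Mice were shared between regions, so libraries are paired by animal: deviations from group means correlated within mice with a mean r of 0.0904 to 0.186. Each regional genotype comparison is unpaired. In the fit of all libraries the dispersion of each gene was shared by all groups. Libraries of the same mouse were treated there as independent. P-values of that fit therefore measure a spread between libraries pooled over the regions. Its combined, region dependence and wild-type regional tests did not use the pairing. Hapln4 in striatum had an FDR of 0.021 in that fit and 0.28 in the striatal libraries alone. Acan in cortex did not pass in that fit and had an FDR of 0.049 in the cortical libraries alone.

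The members, the gene lists and the markers were chosen with earlier results of these data known. Named are all members, the called genes of the matrix lists (at most 4 with the smallest FDR per list and direction), the 3 genes most like each member by Pearson r (1 of those of Bcan is not reported here), and markers or neighbours where a result touches them. Alternatives were the quasi-likelihood F test, the Wald test of DESeq2 1.42.0, limma-voom (once plain, once with mice as blocks), wild-type libraries with mice as fixed blocks, RLE size factors, at least 10 counts in every library, RIN or number series as covariates, RIN of at least 7, 1 region or 1 number series alone, the thalamus marker score, and leaving out each mouse. Leaving out the 2 striatal libraries, the oligodendrocyte score, a region alone with RIN or with the F test, and the second largest series of mouse numbers alone were added after seeing the data. Protein sequences and the Hapln4 promoter were not used here.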

Additional observations from a re-analysis of the deposited data

Results flagged for a closer look

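Of 56 groups of libraries (7 genes, 4 regions, 2 genotypes) tested for a value standing apart, 1 was found, where chance alone gives about 1 in 20. Hapln2 in wild-type striatum was 135 CPM in mouse 7267059, against 45.9 to 85.7 CPM in the other 7 libraries. This library had a RIN of 7.3, the highest thalamus marker sum in striatum (2270 CPM) and the highest mature oligodendrocyte marker sum in striatum (19500 CPM). Their part in the value was not tested. No genotype effect of a member differed between regions at an FDR below 0.05 (edgeR likelihood ratio test, with 2 of 7 at an unadjusted p under 0.05).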

How the results depend on the processing

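Of 2093 values of single members under the alternatives, 2033 stayed on their side of the threshold, 31 lost a call, 29 gained one and 0 reversed a call. The count of members called in striatum, 1 as reported, was 0 with limma-voom without the replicate block and 0 with the mouse as a replicate block (Hapln4 at -0.99 and -1.01, FDR 0.055 each), 0 with a RIN of at least 7 (-0.89, FDR 0.21), 0 with the region alone (FDR 0.28), with or without RIN, 0 with the region alone and the F test and 0 with the largest number series alone (-0.74, FDR 1). It was 0 to 1 when each mouse was left out in turn: Hapln4 lost its call without mouse 7267054 (FDR 0.11), 7267056 (0.12), 7267058 (0.065), 7267059 (0.15) or 9083515 (0.11), but without 7267059 Acan passed instead. The combined test called 0 to 1 without each mouse, Acan without 7267059 and Hapln4 without 9082853 (FDR 0.042), and 1 without the marker-high striatal libraries. Brainstem gave 1 with the oligodendrocyte score (Acan, 0.48, FDR 0.03) and cortex 1 with the region alone (Acan). Wild-type cortex against striatum gave 1 with RLE size factors and 1 to 2 without each mouse, Tnr being lost in both kinds. Leaving out each mouse gave 6 to 7 calls for brainstem against cortex, 6 to 7 for brainstem against striatum and 3 to 5 for cerebellum against cortex. Calls were gained by Hapln1 in brainstem against cortex (5 of 22 alternatives), by Hapln2 (8 of 22) and Hapln4 (2 of 22) in cerebellum against cortex, and by Hapln4 in cortex against striatum (5 of 22). With mice as a replicate block in limma-voom, Hapln1 in brainstem against cortex was 0.36 (FDR 0.024), Hapln4 in cerebellum against cortex 0.66 (FDR 0.043) and Hapln4 in cortex against striatum 0.84 (FDR 0.014). With mice as a fixed replicate block in wild-type libraries, cortex against striatum was 0.84 for Hapln4 (FDR 0.02) and 0.25 for Tnr (FDR 0.058). The cause of these changes was not tested. The lowest count of a member in 1 library was 79, for Acan in cerebellum.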

Other observations

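In wild-type mice the other matrix genes also differed between regions. Between brainstem and cerebellum 47 of 61 were called, 31 of them higher in brainstem (72.6% of all genes were called), and between cortex and striatum 25 of 61, 18 of them higher in cortex (34.4% of all genes). Of the 17 chondroitin sulphate genes, 15 were called between cerebellum and striatum, 12 of them lower in cerebellum, the direction Ncan had. Of all genes 69.5% were called there, 4364 lower and 4231 higher in cerebellum. Oligodendrocyte precursor markers, among them the proteoglycan gene Cspg4, were higher in brainstem than in cerebellum in 6 of 6 cases, with summed levels of 192 to 288 CPM in wild-type brainstem and 72.3 to 110 CPM in wild-type cerebellum, and 0 of 6 were called between genotypes in any region (edgeR likelihood ratio test, with 3 of 6 at an unadjusted p under 0.05 in brainstem and 0 elsewhere).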
